A study of Mus musculus with 16 samples.

Results

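Gm19684, Gm20559, Gm11368 and Gm15232 are mouse transcripts that carry only a provisional gene model symbol, and their UMIs were examined in hippocampal nuclei of mice given a STING agonist. They are 4 of 32285 genes in the deposited count matrices, in which 11045 symbols are of the same unnamed kind (Gm and digits, or ending in Rik). They were chosen because earlier results of these data had shown them to move with treatment. Gm19684 and Gm20559 were chosen on their counts in excitatory neurons (EN), by a difference between genotypes. In that class both were higher after DMXAA in wild-type (WT) mice. Gm11368 and Gm15232 were chosen on their counts in microglia, in which both were lower. Values from those classes and contrasts are therefore given as descriptions, and only the other classes and contrasts were tested.

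Single-nucleus RNA-seq libraries (droplet-based, read from the 3' end, with a UMI for each captured RNA molecule) were made from the hippocampi of 16 male mice, 1 animal for each library. WT mice were C57BL/6 and aged 2 months and 23 days. Ifnar1-/- mice, which lack a subunit of the type I interferon receptor throughout the body, were aged 3 months and 3 days. In each genotype 4 mice received vehicle and 4 received DMXAA, by repeated intraperitoneal injection. Genotype and age therefore cannot be told apart, and p-values measure the spread between these animals.

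DMXAA (5,6-dimethylxanthenone-4-acetic acid) activates mouse STING, which signals through TBK1 and IRF3 to the genes of type I interferons. Interferon binds a receptor of which IFNAR1 is a subunit, and signalling from the receptor leads to the transcription of interferon-stimulated genes (ISGs), many of which carry interferon-stimulated response elements near their start. In the brain, microglia are the resident macrophages, and neurons and other glia also carry the receptor. Many ISGs have names and known products, whereas the 4 transcripts examined here have none.

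After filtering, 108878 nuclei remained (5163 to 9237 in each library), with 32581988 to 51703795 UMIs in each library. Classes are marker-defined ("X-like") and are called by the short class name from here on. Over all libraries, the microglial marker list summed to 9776 CPM (UMIs scaled to 1000000 UMIs of the class) in microglia and to 60.5 to 234 CPM in EN, inhibitory neurons (IN), oligodendrocyte precursors (OPC), astrocytes, oligodendrocytes, fibroblasts and choroid plexus. The fibroblast list summed to 5757 CPM in fibroblasts and to at most 163 CPM in those other classes. Ifnar1 itself measured 16.9 to 18.7 CPM in WT vehicle libraries, 13.4 to 18.9 CPM in WT DMXAA, 10.6 to 11.9 CPM in Ifnar1-/- vehicle and 10.9 to 12.5 CPM in Ifnar1-/- DMXAA. Counts outside the deleted part of the gene can remain in these mice. The library labelled WT DMXAA replicate 3 had the 13.4 CPM and stood apart. A scale was set from 0 (mean of WT vehicle) to 1 (mean of Ifnar1-/- vehicle) over genes that differ between those groups. On it, replicate 3 lay at 0.946 in EN, 0.876 in astrocytes and 0.657 in microglia. The other WT DMXAA libraries lay between -0.174 and -0.036 in these classes. The Ifnar1-/- DMXAA libraries lay at 0.593 to 0.885 in EN, 0.609 to 0.818 in astrocytes and 0.622 to 0.797 in microglia. Replicate 3 was thus within or above their range in each. Libraries shared 9 to 38 cell barcodes in pairs. Tested values that change their call without that library, and the values the transcripts were chosen on, are given with and without it.

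Gm20559 (ENSMUSG00000106734) lies at chr6:3333194-3346128 on the minus strand of GRCm38 and is annotated as a processed transcript. It has 6 transcripts of 1 to 4 exons. Gm19684 (ENSMUSG00000092277) lies at chr17:36121678-36129692 on the plus strand and is annotated as protein coding, with 1 transcript of 3 exons. Gm11368 (ENSMUSG00000085188, chr13:30058677-30062971, plus strand) and Gm15232 (ENSMUSG00000084806, chrX:167088093-167102090, minus strand) are annotated as lincRNAs, long RNAs between coding genes, each of 4 exons.

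The promoters of Gm20559 and Gm15232 are shown because one transcript was higher and the other lower after DMXAA. Each runs from 250 bases before to 50 bases after the annotated start, from RefSeq on GRCm38.p6, written 5' to 3'. RefSeq promoters were matched for these 2 of the 4. Capitals mark GAAANNGAA, a shortened interferon-stimulated response element core, in Gm20559, and GGAAGT, a core bound by ETS factors, in Gm15232.
Gm20559, chr6:3346092-3346391, minus strand: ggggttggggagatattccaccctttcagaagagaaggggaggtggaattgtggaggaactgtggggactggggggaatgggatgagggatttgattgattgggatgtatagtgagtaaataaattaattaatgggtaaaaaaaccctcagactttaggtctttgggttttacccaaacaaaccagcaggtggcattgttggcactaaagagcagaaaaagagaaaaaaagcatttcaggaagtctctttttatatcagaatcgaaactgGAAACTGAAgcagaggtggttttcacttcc
Gm15232, chrX:167102057-167102356, minus strand: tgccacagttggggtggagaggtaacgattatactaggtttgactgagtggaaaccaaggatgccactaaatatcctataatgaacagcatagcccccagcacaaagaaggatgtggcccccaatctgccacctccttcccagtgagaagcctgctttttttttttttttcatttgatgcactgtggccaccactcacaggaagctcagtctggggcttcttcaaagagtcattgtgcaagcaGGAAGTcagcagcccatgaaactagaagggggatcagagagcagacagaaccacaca

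GAAANNGAA occurred once in the Gm20559 promoter, at +20 from the start, and was in 8.56% of 32851 promoters of the same length, searched on both strands. It was chosen after the sequence was seen. It also occurred in the promoters of the neighbouring ISG Samd9l (at +38) and of H2-T22 and H2-T23, and not in that of Gm15232. The full core, which has 1 further A at its 3' end, was in 3.44% of promoters, among them those of H2-T22 and H2-T23 and not those of Gm20559, Samd9l and Gm15232. GGAAGT was in 23.8% of promoters, with 2 matches in Gm20559 and 1 each in Gm15232, Samd9l and H2-T22. A match is a description of letters and not a shown binding site.

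For Gm11368 the last exon (exon 4, 238 bases, GENCODE M21 on GRCm38) is shown, since the assay reads RNA from the 3' end. It holds no AATAAA polyadenylation signal and 1 match to the common variant ATTAAA (in capitals), which starts 24 bases from its end.
Gm11368 exon 4, chr13:30062734-30062971, plus strand: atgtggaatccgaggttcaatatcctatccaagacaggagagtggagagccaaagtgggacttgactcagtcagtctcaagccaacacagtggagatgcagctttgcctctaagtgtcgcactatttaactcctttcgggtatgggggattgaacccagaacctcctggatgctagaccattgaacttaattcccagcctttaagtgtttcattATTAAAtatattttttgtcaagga

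The exons of Gm11368 and Gm15232 were nearly free of shared sequence, with 0 of 579 and 4 of 2251 exonic 31-base words found in another gene. In Gm20559, 14.2% of such words occurred in any of 133 other genes. Gm19684 shared 919 of 1581 words (58.1%) with a single gene, Gm6034, which lies 63033 bp away on the same strand. Gm7030 overlaps Gm19684 on the opposite strand. Over all nuclei Gm6034 had 98 UMIs in WT vehicle and 187 in WT DMXAA, and Gm7030 had 66 and 117, whereas Gm19684 had 59 and 303. The counts of Gm19684 are therefore uncertain for reads in the sequence shared with Gm6034. How that sequence and the overlap with Gm7030 affected the counts was not tested.

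All 4 transcripts were rare. Gm20559 had 2113 UMIs in the nuclei kept, Gm19684 had 472, Gm15232 had 160 and Gm11368 had 130. Of the Gm20559 UMIs, 60.4% were in fibroblasts and 6.13% in EN in WT vehicle, and 23.7% and 27.2% in WT DMXAA. Gm19684 had 32.2% of its UMIs in fibroblasts and 20.3% in EN in WT vehicle, and 6.93% and 55.1% in WT DMXAA. Gm11368 and Gm15232 were mostly in microglia, with 92.3% and 91.8% of their UMIs in WT vehicle and 61.1% (11 of 18) and 68.0% (17 of 25) in WT DMXAA. Levels are sums over the nuclei of a class, so that fewer nuclei with the RNA and less RNA in each nucleus cannot be told apart.

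Gm20559 was present in fibroblasts without treatment and rose after DMXAA in OPC and choroid plexus of WT mice. Over the 8 largest named classes, the order of its mean level in WT vehicle was fibroblasts (103 CPM ± 23.2, SD, n = 4), choroid plexus (6.58 ± 4.18, n = 3), microglia (5.35 ± 4.02), OPC (3.12 ± 0.987), IN (2.52 ± 2.14), astrocytes (1.75 ± 0.650), EN (0.193 ± 0.0442) and oligodendrocytes, with no UMI among 11023920. From choroid plexus down to astrocytes, no neighbours in this order differed beyond their SDs, whereas fibroblasts lay above and EN below by more than the SDs. The 0 in oligodendrocytes allows a level of up to 0.272 CPM (3 UMIs), for counting error only. Mural nuclei (9.94 CPM, n = 3) and unnamed nuclei (2.78 CPM) are left out of this order.

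**Figure D1:**
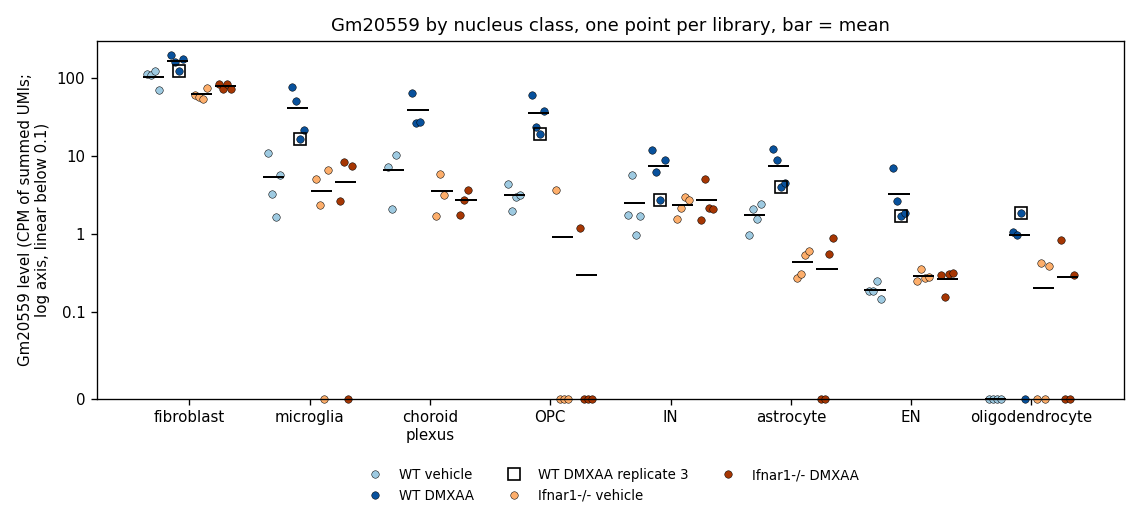
Gm20559 level in CPM of the UMIs summed over each class (log axis, linear below 0.1), by class and group. Each point is 1 library, bars are group means, and the open square marks WT DMXAA replicate 3. Of the classes plotted, fibroblasts lie highest in every group, and the WT DMXAA libraries lie above the WT vehicle libraries in fibroblasts, microglia, choroid plexus, OPC, astrocytes and EN.

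In OPC, the dividing precursors of oligodendrocytes, the 4 WT vehicle libraries measured 4.39, 1.98, 2.97 and 3.14 CPM of Gm20559, and the 4 WT DMXAA libraries 60.8, 23.7, 19.0 and 37.3 CPM. The groups did not overlap. The log2 fold change was 3.52 ± 0.48 (SE; edgeR quasi-likelihood, Benjamini-Hochberg adjusted p = 0.000202). Of all genes tested in OPC, 0.185% were called in this contrast. The transcript passed the filter on low counts only through the 4 WT DMXAA libraries, the group in which it is high, and with no filter the log2 fold change was 3.49 (adjusted p = 7.88e-14). The call held in 23 of 24 alternatives (adjusted p = 7.88e-14 to 0.0534) and was lost with limma.

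Choroid plexus epithelium makes the cerebrospinal fluid. Its Gm20559 levels were 7.25, 2.10 and 10.4 CPM in the 3 WT vehicle libraries with at least 20 such nuclei and 63.6, 26.6 and 27.2 CPM in the 3 WT DMXAA libraries. Again no WT DMXAA library reached down to the vehicle range, and the log2 fold change was 2.66 ± 0.52 (edgeR adjusted p = 0.00956; 0.548% of genes called). Here too the filter was passed only through WT DMXAA, and with no filter the log2 fold change was 2.67 (adjusted p = 4.79e-05). WT DMXAA replicate 3 had too few of these nuclei and was not in this fit. The call held in 16 of 19 alternatives (adjusted p = 4.79e-05 to 0.155) and was lost with limma and without WT vehicle replicate 2 or WT DMXAA replicate 1. DESeq2 gave no adjusted p for it.

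In astrocytes, WT vehicle libraries held 0.956, 2.07, 1.54 and 2.45 CPM of Gm20559 and WT DMXAA libraries 12.4, 8.85, 3.99 and 4.48 CPM. The groups did not overlap, but the log2 fold change of 2.05 ± 0.47 did not pass the threshold (edgeR adjusted p = 0.0939; 0.278% of genes called). Without WT DMXAA replicate 3 it did, at 2.22 with an adjusted p of 0.0113, where 144 of 13586 genes were called against 37 of 13323 with all libraries. The filter was passed only through WT DMXAA in this class as well, and with no filter the adjusted p was 0.0619.

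The astrocyte result was also called by DESeq2 with all libraries. IN overlapped between groups, with 1.73, 5.68, 0.964 and 1.72 CPM in WT vehicle and 11.9, 6.19, 2.74 and 8.94 CPM in WT DMXAA. Their log2 fold change was 1.66 ± 0.48 (edgeR adjusted p = 0.769). No gene was called in IN (0% of 13750 tested; 537 had an unadjusted p under 0.05). The overlap was between WT DMXAA replicate 3 and WT vehicle replicate 2, which lay far above the other vehicle libraries. Without WT DMXAA replicate 3 the log2 fold change was 1.90 (adjusted p = 0.231; 3 of 14006 genes called).

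In fibroblasts, which line the meninges and vessels, Gm20559 measured 111, 109, 123 and 69.4 CPM in WT vehicle and 194, 159, 123 and 173 CPM in WT DMXAA. The lowest DMXAA value, from replicate 3, lay just above the highest vehicle value. The log2 fold change was 0.72 ± 0.18 (edgeR adjusted p = 0.459; 0% of 8698 genes called, 481 at an unadjusted p under 0.05). Leaving out replicate 3 gave 0.84 with an adjusted p of 0.0232, where 40 of 9041 genes were called. The class with the highest level thus had the smallest log2 fold change of those tested.

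Microglial Gm20559 was at 10.8, 3.23, 1.63 and 5.70 CPM in WT vehicle and at 75.5, 50.2, 16.4 and 21.2 CPM in WT DMXAA. These groups did not overlap either. The gene missed the filter on low counts there and so has no value in the fit used throughout. With no such filter the log2 fold change was 2.88 (adjusted p = 0.000275; 1.25% of genes called), an alternative under which it was called.

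Oligodendrocytes went from 0 UMIs in all WT vehicle libraries to 1.07, 0.959, 1.85 and 0 CPM in WT DMXAA. The 12 UMIs of the WT DMXAA group gave 3.56 times the level of 3 UMIs over the vehicle group. This leaves out the counting error of the 12, and the libraries overlapped at 0. With no filter on low counts the pair was not called (log2 fold change 4.51, edgeR adjusted p = 0.571). Free RNA in droplets can add UMIs to any class, and its part in these low levels was not tested.

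In the 5 pairs of Gm20559 and class outside EN that the fit tested in WT, 2 were called. In 3 of the 5 (OPC, choroid plexus and astrocytes) the filter was passed only through WT DMXAA, so a high level there was in part a condition of being tested. Without WT DMXAA replicate 3, the fit tested 7 pairs that the rule had not used, of which 6 were of Gm20559 and 1 of Gm19684 (in astrocytes), and 5 were called, all of Gm20559 (OPC, choroid plexus, astrocytes, fibroblasts and microglia). Calls over all genes were also more frequent in that setting in 4 of these 5 classes, with 76 of 10007 genes in OPC and 724 of 9076 in microglia, against 18 of 9722 and 189 of 8931 with all libraries. In choroid plexus the count stayed at 50 of 9117 genes. Microglia also entered that setting only through WT DMXAA. With all libraries the filter asked for 4 at its level there, and 3 reached it, all of WT DMXAA. The same held for Gm19684 in astrocytes. Microglial Gm20559 was also called without WT vehicle replicate 1 and without any single Ifnar1-/- library. By an exact permutation test over libraries the smallest possible two-sided p is 0.0286, which Gm20559 reached in OPC, astrocytes, fibroblasts and microglia (adjusted p = 0.0905 over 19 pairs of transcript, class and genotype). The share of all genes whose groups did not overlap is not given here, and the classes come from the same animals. The lack of overlap is therefore a description.

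The order of the 4 WT DMXAA libraries by Gm20559 recurred across classes. Replicate 1 was the highest in 7 of 8 classes and replicate 3 the lowest in 6 of the 7 in which it had a value. Their order by Gm20559 was the same as their order by the summed CPM of the listed ISGs (58 of 60 are in the files) in 4 of 6 classes (microglia, OPC, EN and astrocytes). In microglia the ISG sum was 3879 CPM in replicate 3 and 6816 to 13347 CPM in the other 3, against 1430 to 1549 CPM in WT vehicle and 826 to 1051 CPM in the Ifnar1-/- libraries. The points share the library and its depth, and with 4 libraries no test was made.

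**Figure D2:**
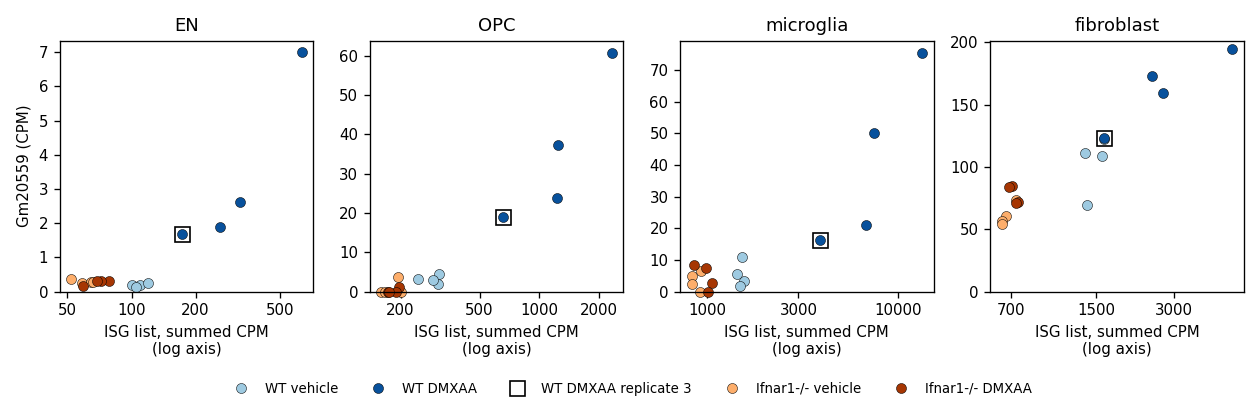
Gm20559 level (CPM) against the summed CPM of the listed ISGs (log axis) in EN, OPC, microglia and fibroblasts. Each point is 1 library and the open square marks WT DMXAA replicate 3, which lies between the WT vehicle libraries and the other WT DMXAA libraries on the ISG axis in EN, OPC and microglia, and beside the WT vehicle libraries in fibroblasts.

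In EN, the class that chose it, Gm20559 measured 0.186, 0.188, 0.253 and 0.146 CPM in WT vehicle and 6.99, 2.62, 1.69 and 1.88 CPM in WT DMXAA. The log2 fold change was 4.11 ± 0.42 (4.27 without WT DMXAA replicate 3), given as a description, where 0.13% of genes were called. Gm19684, the other transcript chosen there, measured 0.186, 0.0752, 0.0844 and 0.110 CPM in WT vehicle and 1.98, 1.76, 1.45 and 1.22 CPM in WT DMXAA (log2 fold change 3.83 ± 0.40, and 3.77 without that library). The spread within WT DMXAA was wider for Gm20559 than for Gm19684, and replicate 1 was the highest in both. In EN, 2 of 3614 unnamed transcripts tested were called in WT, and these are the 2 described here.

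The EN could be split into regions by regional markers, and the 2 transcripts differed in where their UMIs lay. The regions are parts of the EN counts on which both were chosen, so all regional values are descriptions. A separation of the WT groups in a region follows in part from the choice. Of 167 EN UMIs of Gm19684 in WT DMXAA, 137 (82.0%) were in dentate granule neurons, the input neurons of the hippocampal circuit, and 20 in CA1 pyramidal neurons. Of 329 EN UMIs of Gm20559, 140 (42.6%) were in dentate granule neurons, 76 (23.1%) in CA1 and 47 (14.3%) in deep cortical neurons.

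In dentate granule neurons Gm19684 measured 0.138, 0.167, 0.258 and 0.115 CPM in WT vehicle and 5.06, 3.42, 3.23 and 2.89 CPM in WT DMXAA. In CA1 it measured 0.284, 0, 0 and 0.242 CPM in WT vehicle and 1.18, 1.09, 1.02 and 0.536 CPM in WT DMXAA. The groups did not overlap in either region, and the WT DMXAA libraries of dentate granule neurons all lay above those of CA1.

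Gm20559 had 0.138, 0.0837, 0.129 and 0.115 CPM in dentate granule neurons of WT vehicle and 8.95, 2.54, 2.13 and 2.36 CPM in WT DMXAA. Its CA1 levels were 0.284, 0.507, 0 and 0.242 CPM in WT vehicle and 10.4, 3.08, 1.61 and 1.07 CPM in WT DMXAA. Deep cortical neurons had 0.254, 0, 0.866 and 0 CPM in WT vehicle and 7.37, 5.88, 1.78 and 2.52 CPM in WT DMXAA. These 3 regions had overlapping WT DMXAA levels of Gm20559, unlike those of Gm19684, and the groups did not overlap in any of them, nor in the subiculum. In CA3 they did, since WT vehicle replicate 3 had 1 UMI (1.85 CPM).

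**Figure D3:**
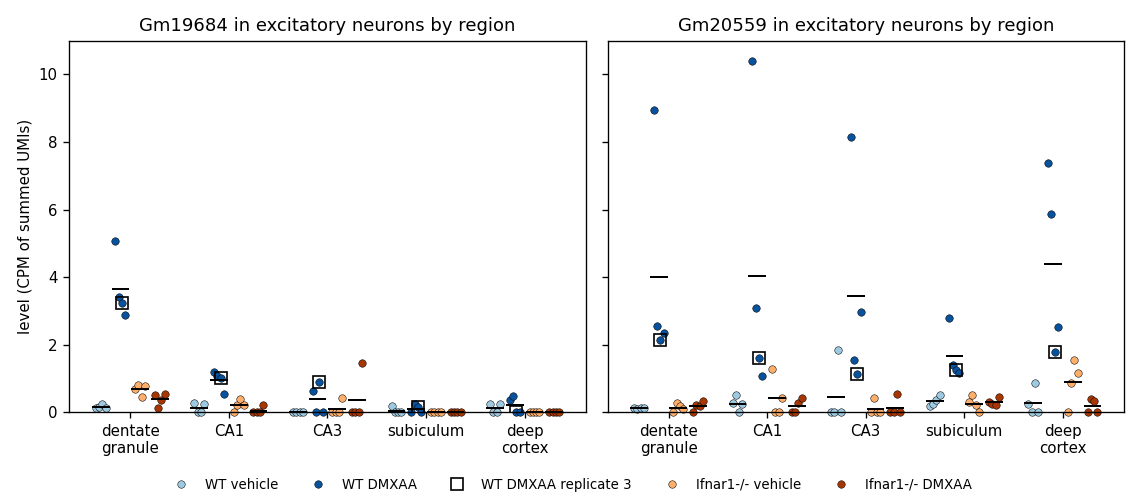
Levels of Gm19684 and Gm20559 (CPM, linear axis) in EN by region and group. Each point is 1 library, bars are group means and the open square marks WT DMXAA replicate 3. Gm19684 is highest in dentate granule neurons of WT DMXAA mice (2.89 to 5.06 CPM), and Gm20559 spreads over the regions with replicate 1 at the top of each.

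Among its 10 leading genes the dentate granule cluster had 1 EN marker (Prox1) and 1 IN marker (Adarb2), and more IN than EN markers there would have left it unnamed. With these nuclei left out of EN, the log2 fold change of Gm20559 in WT was 3.65. Gm19684 then had too few UMIs for the fit, with 6 in WT vehicle (0.204, 0, 0 and 0.107 CPM) and 30 in WT DMXAA (0.499, 0.563, 0.501 and 0.166 CPM), and the groups overlapped.

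Outside EN, Gm19684 had few UMIs and was tested in no class by the fit used throughout. In OPC it measured 1.10, 0, 0.990 and 1.05 CPM in WT vehicle and 9.95, 1.08, 1.05 and 12.1 CPM in WT DMXAA, so that replicates 1 and 4 were high and the others were within or near the vehicle range. Astrocytes had 1.43, 2.90, 1.16 and 0.613 CPM in WT vehicle and 7.23, 5.13, 1.59 and 4.14 CPM in WT DMXAA. With no filter on low counts neither was called (edgeR adjusted p = 0.181 in OPC and 0.8003 in astrocytes). Without WT DMXAA replicate 3, astrocytes had a log2 fold change of 1.91 (adjusted p = 0.133). In IN the groups overlapped, with means of 0.502 CPM in WT vehicle and 0.460 CPM in WT DMXAA. In choroid plexus they did not, with 0, 1.05 and 0 CPM in WT vehicle and 13.2, 5.79 and 5.04 CPM (5 UMIs each) in WT DMXAA. With no filter this was not called either (log2 fold change 3.25, edgeR adjusted p = 0.298).

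In microglia Gm19684 had no UMI in any WT vehicle library and 4.19, 3.14, 2.34 and 3.97 CPM in WT DMXAA. These were 10 UMIs in all, 2.90 times the level of 3 UMIs over the vehicle group, without the counting error of the 10. The pair was not called with no filter (edgeR adjusted p = 0.150). Its fibroblast levels overlapped, at 11.9, 5.35, 12.8 and 10.8 CPM in WT vehicle and 27.1, 0, 8.45 and 14.7 CPM in WT DMXAA. Of the 8 classes plotted for Gm20559, fibroblasts had thus the highest Gm19684 level in WT vehicle.

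Gm11368 and Gm15232 were chosen for their lower microglial counts in WT DMXAA. Gm11368 measured 18.6, 24.2, 21.2 and 11.4 CPM in WT vehicle and 5.59, 3.14, 1.17 and 5.29 CPM in WT DMXAA. Gm15232 measured 37.1, 35.6, 24.5 and 8.54 CPM in WT vehicle and 6.99, 7.84, 3.52 and 5.29 CPM in WT DMXAA. The log2 fold changes were -2.23 ± 0.43 and -2.11 ± 0.52 (-1.95 and -1.96 without WT DMXAA replicate 3), as descriptions, where 2.12% of genes were called in microglia. In UMIs, Gm11368 went from 48 to 11 and Gm15232 from 67 to 17, so each library rests on few molecules.

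**Figure D4:**
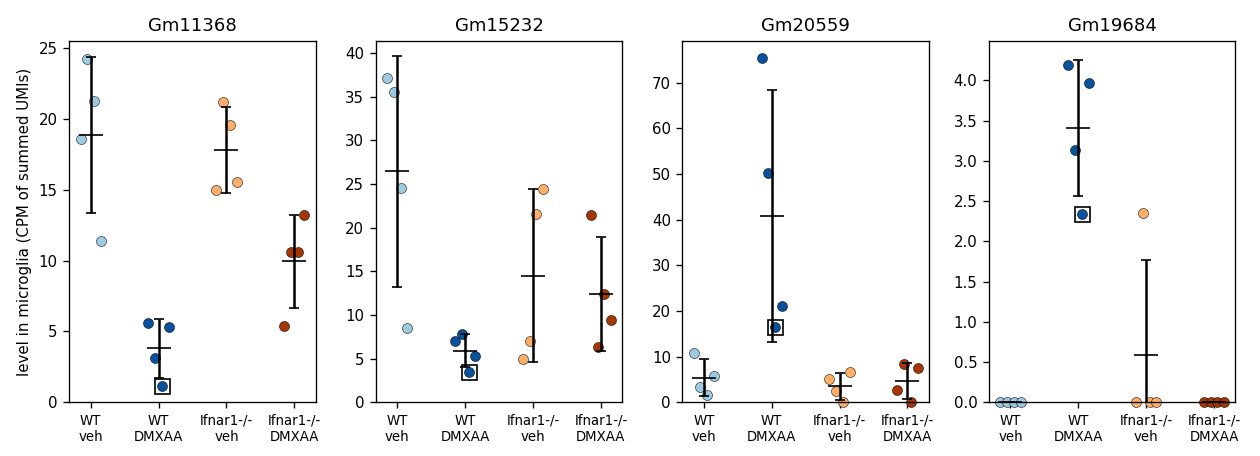
Levels of the 4 transcripts in microglia (CPM, a separate linear axis for each). Each point is 1 library, horizontal bars are means with SD, and the open square marks WT DMXAA replicate 3. Gm11368 and Gm15232 are lowest in WT DMXAA, and in Ifnar1-/- mice Gm11368 is at 14.98 to 21.2 CPM with vehicle and 5.35 to 13.2 CPM with DMXAA.

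Other microglial measures moved in the same libraries. The summed level of the microglial marker list was 9856 to 10692 CPM in WT vehicle and 6414 to 9677 CPM in WT DMXAA, and that of 15 homeostatic microglial genes 12808 to 13558 and 6782 to 11893 CPM. Of those 15, 3 fell in WT (Fcrls, P2ry12 and Sparc), none rose, and the median log2 fold change was -0.43 against 0.02 over all genes tested. The border macrophage list summed to 251 to 328 CPM in WT vehicle and to 211 to 339 CPM in WT DMXAA, and 1 of its 7 genes was at 0 in microglia. Their part in the levels of Gm11368 and Gm15232 was not tested. Microglia made up 4.27 to 4.80% of the nuclei in WT vehicle and 4.23 to 5.79% in WT DMXAA. Among the 586 unnamed transcripts tested in microglia, 14 (2.39%) were called in WT, 5 higher and 9 lower. Gm11368 and Gm15232, chosen for this, are among them. Of all genes tested there 2.12% were called, 122 higher and 67 lower.

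In Ifnar1-/- mice no transcript of the 4 was called after DMXAA. None of the 7 pairs of transcript and class tested passed by edgeR, DESeq2 or limma, and 0 of 7 had an unadjusted p under 0.05 by edgeR. Gm20559 passed the filter on low counts only through WT DMXAA libraries in OPC, astrocytes and choroid plexus. In Ifnar1-/- mice it had 3 UMIs with vehicle and 1 with DMXAA in OPC, 6 and 5 in astrocytes and 10 and 4 in choroid plexus. With so few UMIs a missing call there says little. In a fit of the Ifnar1-/- groups alone only 1 of the 7 pairs was tested. Of all genes tested, 0% were called in EN, IN, OPC, astrocytes, fibroblasts and microglia by edgeR, where 428 to 959 genes had an unadjusted p under 0.05, and 0.011% in choroid plexus.

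Of the 7 pairs tested, the value nearest to a change by edgeR was that of Gm11368 in Ifnar1-/- microglia. The transcript passed the filter on low counts only through vehicle libraries (3 WT and 2 Ifnar1-/-), so the filter favoured a lower value after DMXAA. It measured 14.98, 21.2, 19.6 and 15.5 CPM with vehicle and 5.35, 10.6, 10.6 and 13.2 CPM with DMXAA, and the groups did not overlap. These levels rest on 32 UMIs with vehicle and 20 with DMXAA. The log2 fold change was -0.85 ± 0.42 (edgeR adjusted p = 0.913; exact permutation p = 0.0286, the smallest possible, adjusted p = 0.0905 over 19 pairs). The microglial marker list was not lower in these libraries, at 9405 to 11107 CPM with vehicle and 10637 to 11712 CPM with DMXAA. The border macrophage list was at 219 to 343 and 341 to 391 CPM, and its part in this difference was not tested.

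Gm15232 overlapped in Ifnar1-/- microglia, at 4.99, 7.06, 21.6 and 24.4 CPM with vehicle and 21.4, 6.35, 12.4 and 9.41 CPM with DMXAA (log2 fold change -0.35 ± 0.55, edgeR adjusted p = 0.938).

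Gm20559 also overlapped between treatments in the 8 largest named classes of Ifnar1-/- mice. In unnamed nuclei it did not, with means of 1.92 CPM with vehicle and 0.293 CPM with DMXAA. There it had only 5 and 1 UMIs, under the 10 asked for the permutation test. In OPC it had 3.63, 0, 0 and 0 CPM with vehicle and 1.21, 0, 0 and 0 CPM with DMXAA. Fibroblasts, again the highest of the larger classes, had 60.9, 56.3, 54.3 and 73.4 CPM with vehicle and 84.4, 71.7, 84.2 and 71.0 CPM with DMXAA (log2 fold change 0.33 ± 0.19, edgeR adjusted p = 0.948). Endothelial nuclei reached the minimum of 20 only in 6 Ifnar1-/- libraries and had 48.8, 93.0, 55.2 and 72.5 CPM with vehicle and 63.9 and 100.6 CPM with DMXAA. No treatment effect in WT endothelium could be read. EN were at 0.252 to 0.360 CPM with vehicle and 0.158 to 0.312 CPM with DMXAA, and Gm19684 in EN at 0.241 to 0.360 and 0.0395 to 0.416 CPM.

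**Figure D5:**
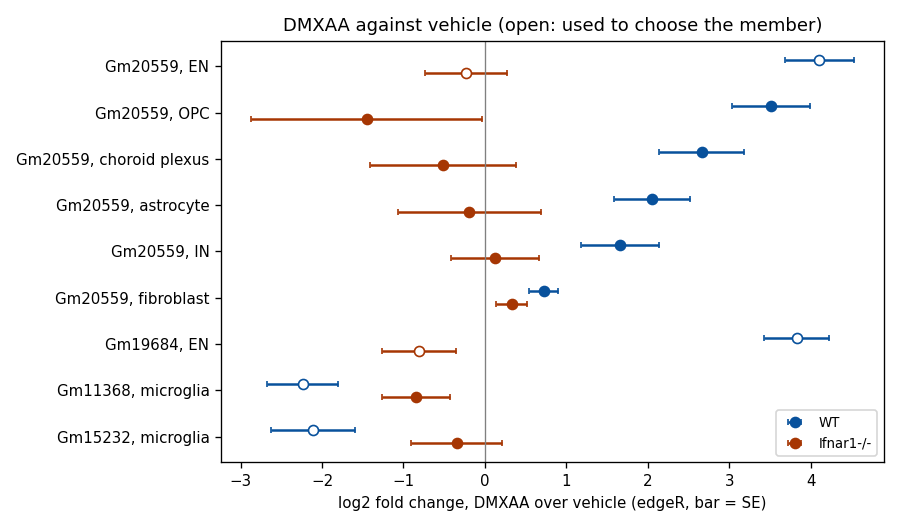
Log2 fold change of DMXAA over vehicle (edgeR, bars are SE) for each pair of transcript and class that was tested, in WT and in Ifnar1-/- mice. Open markers are pairs that entered the choice of the transcript. The WT estimates of Gm20559 are all above 0, from 0.72 in fibroblasts to 4.11 in EN, and the Ifnar1-/- estimates lie between -1.45 and 0.33. In EN, OPC, choroid plexus and astrocytes Gm20559 passed the filter on low counts only through WT DMXAA, which favoured a WT estimate above 0. The -1.45, in OPC, rests on 3 UMIs with vehicle and 1 with DMXAA. No difference between genotypes was called in the pairs tested.

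The difference between the DMXAA effects of the 2 genotypes was 0.39 ± 0.26 for Gm20559 in fibroblasts and 4.97 ± 1.75 in OPC on the log2 scale, with the other 3 tested classes between. The OPC value rests on 3 and 1 UMIs in Ifnar1-/- mice, and in OPC, choroid plexus and astrocytes the filter favoured a positive sign. None was called by edgeR, DESeq2 or limma (edgeR adjusted p = 0.752 in OPC, 0.716 in choroid plexus, 0.715 in astrocytes, 0.772 in IN and 0.839 in fibroblasts), and 2 of 5 had an unadjusted p under 0.05. Over all genes, 0.0283% were called for this difference in EN, 0.0514% in OPC, 0.213% in microglia and 0% in IN, astrocytes, choroid plexus and fibroblasts, where 522 to 888 genes had an unadjusted p under 0.05. A smaller effect of DMXAA on Gm20559 in Ifnar1-/- mice was thus not shown by these tests in the 5 pairs.

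Without treatment, Gm20559 was lower in Ifnar1-/- than in WT fibroblasts, by a log2 fold change of -0.72 ± 0.19 (edgeR adjusted p = 0.0139; 13.6% of genes called). It was 1 of 5 pairs tested in this contrast, in which genotype and age cannot be told apart. The 4 WT vehicle libraries (69.4 to 123 CPM) overlapped the 4 Ifnar1-/- vehicle libraries (54.3 to 73.4 CPM) in 1 value at each edge. This was also called by DESeq2 and limma, and it was lost without Ifnar1-/- vehicle replicate 2 (adjusted p = 0.0571).

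In astrocytes the WT vehicle libraries all lay above the Ifnar1-/- vehicle libraries, which had 0.272, 0.311, 0.542 and 0.599 CPM (log2 fold change -1.84 ± 0.69, edgeR adjusted p = 0.0518, and 0.0312 without WT DMXAA replicate 3). Between these groups 49.3% of all genes tested were called in EN, 38.8% in IN, 23.7% in OPC, 29.6% in astrocytes, 29.2% in choroid plexus, 13.6% in fibroblasts and 13.3% in microglia, and they differ in age as well. In EN, Gm19684 went the other way, at 0.302, 0.315, 0.241 and 0.360 CPM in Ifnar1-/- vehicle against at most 0.186 CPM in WT vehicle (1.81 ± 0.48, a description). Without dentate granule nuclei the pooled levels were 0.0871 CPM in WT vehicle and 0.0835 CPM in Ifnar1-/- vehicle.

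The 4 transcripts lie in unlike surroundings. Within 200 kb, Gm20559 has 4 neighbours, among them Samd9l, an interferon-induced antiviral gene, 26129 bp away on the same strand. In WT microglia Samd9l rose from 5 UMIs in vehicle to 162 in DMXAA (log2 fold change 4.71 ± 0.68, edgeR adjusted p = 0.000572). In EN its log2 fold change was 2.22 ± 0.45 (edgeR adjusted p = 0.117), against 4.11 for Gm20559, which was chosen in that class. In fibroblasts and choroid plexus Samd9l had 0.55 ± 0.27 and 1.45 ± 0.44, neither called. Of the 8 listed genes of the Samd9l region, Samd9l was the only one of 4 tested in microglia to be called.

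Gm19684 lies among the class I histocompatibility genes of chromosome 17, whose products present peptides on the cell surface. It has 22 neighbours within 200 kb, 12 of which were tested in some class, and only H2-T24 was called in WT, in microglia (1.43 ± 0.32, adjusted p = 0.0195). In EN, in which Gm19684 was chosen, the neighbours H2-T22, H2-T23 and H2-T24 had log2 fold changes of 0.20 ± 0.19, 0.62 ± 0.41 and 0.37 ± 0.36, none called. Of 19 listed class I genes, 0 of 9 tested were called in EN of WT mice, where 0.13% of all genes were called. Their median log2 fold change there was 0.64, against 0.01 over all genes tested. In microglia 6 of 10 were called higher (median 1.44), where 2.12% of all genes were called. Gm11368 has 3 neighbours (E2f3, a cell cycle transcription factor, among them), of which 2 were tested in some class. Gm15232 has 4, of which only 1 was tested, Tmsb4x, which encodes an actin-binding peptide. Its neighbour Tlr8, an RNA sensor, was not tested. None of those tested was called after DMXAA in either genotype.

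The 60 listed ISGs give the setting for these values. In WT mice 36 of 41 tested were called higher in microglia, 23 of 32 in astrocytes and 16 of 37 in EN. The count was 10 of 16 in OPC, 6 of 16 in choroid plexus, 0 of 28 in fibroblasts and 0 of 14 in IN. None was called lower. Of all genes tested, 2.12, 0.278, 0.13, 0.185, 0.548, 0 and 0% were called in these classes, in that order. The median log2 fold changes of the listed ISGs in the same order were 2.40, 1.99, 1.73, 2.05, 1.28, 1.09 and 0.59, against medians of all genes tested of at most 0.02. Outside EN, the value of Gm20559 was above the ISG median in OPC, choroid plexus and IN, within its SE of it in astrocytes and below it in fibroblasts, and these differences were not tested. In OPC, choroid plexus and astrocytes Gm20559 passed the filter on low counts only through WT DMXAA, which favoured a high value. The ISG medians cover only the listed ISGs that passed the filter. In Ifnar1-/- mice 0 listed ISGs were called in any of these classes.

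The genes whose levels most resembled each transcript over the 16 libraries were found in the class with most of its UMIs. All 16 libraries share their group structure, so these correlations across libraries are descriptions and carry no p. Gm19684, Gm11368 and Gm15232 were also compared in the class whose counts chose them, so their likeness to genes that move with DMXAA follows in part from the choice. Gm19684 in EN was most like Gm20559 (Pearson r = 0.910), which was chosen on the same EN libraries, and Iigp1 (0.852), Phf11d (0.823) and Ddx60 (0.817) were also among its nearest. Gm20559 in fibroblasts was most like Ly6e (0.920), Oasl2 (0.898), Sp100 (0.889), Rnf213 (0.878) and Ostc (0.877). Iigp1, Ddx60, Oasl2, Sp100 and Rnf213 are known interferon-stimulated genes.

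For the microglial transcripts the nearest were Gas6 (0.867), Pla2g15 (0.841), Adamts16 (0.830), Gm3468 and Cass4 (0.805) with Gm11368, and Swap70 (0.803), Cyfip1 (0.760), Abcb1b (0.758), Gm3739 (0.758) and Sox4 (0.755) with Gm15232. For Gm20559 in fibroblasts, the pair that the choice did not use, the median correlation with the listed ISGs was 0.811, against -0.152 over all genes compared. By Spearman's rho, 2, 3, 1 and 2 of the 5 nearest genes of Gm19684, Gm20559, Gm11368 and Gm15232 were the same.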

How the data were processed

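The authors deposited raw UMI counts for each gene in each barcode, made with Cell Ranger on mm10 with reads on pre-mRNA included. The labels name version 3.1.0 and the matrix headers 6.1.2. Nuclei with 200 to 4000 genes and at most 5% mitochondrial UMIs were kept, and doublets called from simulated doublets were removed, leaving 108878 of 155084 barcodes. Leiden clustering (2000 variable genes without the 4 transcripts, 30 principal components, 20 neighbours, resolution 0.5; leidenalg 0.10.2, Python 3.11.15) gave 33 clusters, named from marker lists; 10061 nuclei stayed unnamed. The thresholds of the naming rule were those of an earlier analysis of these data. EN were clustered again into 25 clusters and grouped by regional markers.

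Counts were summed per library and class (at least 20 nuclei). edgeR 4.0.16 (quasi-likelihood test, two-sided, with TMM scaling and its filter on low counts; R 4.3.3) was fitted to all genes over 4 groups of 4 libraries, with Benjamini-Hochberg adjustment over all genes of a class and contrast. Calls needed an adjusted p below 0.05 together with a log2 fold change beyond 0.1 in either direction. In microglia, libraries held 373784 to 853409 UMIs, in OPC 805558 to 1262973 and in fibroblasts 271222 to 852258, so 1 UMI is about 1 to 4 CPM there. Alternatives were DESeq2 1.42.0, limma 3.58.1, other scaling and filters, resolution 1.0, doublets kept and each library left out. Exact permutation and EN without dentate granule nuclei were added after the data were seen. The fit was tested on simulated data. The transcripts, lists and contrasts were chosen with earlier results of these data known. Named are the 4 transcripts, their called or overlapping neighbours within 200 kb (GENCODE M21), listed genes and the 5 genes most like each (Pearson r of log2 CPM, at least 10 UMIs per library on average), of which 1 gene is not reported here. Replicate numbers only name libraries.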

Additional observations from a re-analysis of the deposited data

Results flagged for a closer look

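Levels in groups of 4 libraries were screened for a library far from the others, in 39 groups of transcript and class, of which 2 stood out. Chance alone gives about 1 in 20. Gm20559 in EN of Ifnar1-/- DMXAA replicate 2 was at 0.158 CPM, below the other 3 libraries (0.297 to 0.312 CPM). Gm20559 in IN of WT vehicle replicate 2 was at 5.68 CPM, above the other 3 (0.964 to 1.73 CPM).

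The DMXAA effects in EN of WT mice exceeded those of Ifnar1-/- mice by 4.64 on the log2 scale for Gm19684 and by 4.34 for Gm20559. Both transcripts were chosen on EN counts that entered this difference, so the values are descriptions. With dentate granule nuclei left out of EN, the difference for Gm20559 was 4.06 and no longer passed the threshold (edgeR adjusted p = 0.122), and Gm19684 had too few UMIs for the fit.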

How the results depend on the processing

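Of 839 alternative values of 36 log2 fold changes, 785 kept their direction and side of the threshold, 28 lost a call, 11 gained one and 15 changed sign, none of these called. In WT, 2 of 5 pairs were called by the fit described, and by limma 0, by exact permutation over libraries 0 of 11 (the cause was not tested beyond the smallest p that 4 against 4 allows), and with a library left out 1 to 5. With the filter on low counts removed it was 3 of 23. For Ifnar1-/- against WT vehicle the count was 1, and 0 to 2 with a library left out. For DMXAA in Ifnar1-/- mice and for the difference between genotypes it was 0 under each alternative run.

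The sign changes were as follows. With doublets kept, Gm11368 in microglia between genotypes was at -0.012. With no upper limit on genes per nucleus, Gm20559 after DMXAA in Ifnar1-/- mice was at 0.28 in EN, -0.0026 in IN and 0.52 in choroid plexus, and between genotypes at -0.047 in EN and -0.051 in IN. With each library left out in turn, Gm20559 after DMXAA in Ifnar1-/- mice ranged from -0.38 to 0.30 in IN, from -3.01 to 1.56 in OPC, from -0.96 to 0.17 in astrocytes and from -0.83 to 0.031 in choroid plexus. Between genotypes, Gm20559 in choroid plexus ranged from -1.11 to 0.28 and Gm11368 in microglia from -0.14 to 0.19. Astrocytes joined the calls between genotypes without WT DMXAA replicate 1, 3 or 4 or Ifnar1-/- DMXAA replicate 1 or 4, and OPC without Ifnar1-/- vehicle replicate 1. Limits are few UMIs per library, the WT DMXAA library that stood apart, and genotype tied to age. No paired analysis was possible because replicate numbers were given in accession order and pair no animals.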

Other observations

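Border macrophage nuclei reached 20 in a single library, WT DMXAA replicate 3, which stood apart from its group, and in which 82 nuclei held 15 UMIs of Gm20559 (79.3 CPM, exact 95% interval 44.4 to 131 CPM, for counting error only) and 3 of Gm19684 (15.9 CPM, 3.27 to 46.4 CPM). Mural and ependymal nuclei gave at most 2 UMIs of Gm20559 in any group.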
